A study of Mus musculus with 37 samples.

Results

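The Notch genes measured here are 10 genes of one signalling pathway in cortical astrocytes, namely the receptors Notch1 and Notch2, the ligands Jag1, Jag2, Dll1 and Dll4, the transcription factor Rbpj and the target genes Hes1, Hes5 and Hey1. They were chosen by name, as the rows of both expression tables whose Ensembl identifier carries one of these symbols, and each of the 10 symbols matched 1 of the 21975 identifiers in each table. Astrocytes were isolated with magnetic beads against the surface antigen ACSA-2 from the cortex on each side of the brain, and their RNA was sequenced 4 months after surgery. The mice were wild-type CD1 males according to the study's methods, while the sample labels name the strain CD31, and no age is given. The injured mice had a controlled cortical impact (CCI), a blow of a flat tip onto the exposed cortex on the right, and were split by seizures on the electroencephalogram into mice with post-traumatic epilepsy (PTE+) and mice without it (PTE-). The sham mice had the craniectomy without the impact, and injured and sham mice alike carried implanted recording electrodes, so both procedures are shared by all groups. Ipsilateral libraries came from 5 sham, 10 PTE- and 4 PTE+ mice, and contralateral ones from 5 sham, 9 PTE- and 4 PTE+ mice. Each library is 1 hemisphere of 1 mouse, and 17 of the 20 mice gave both hemispheres.

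Notch receptors sit in the cell membrane and are activated by ligands of the Jagged and Delta-like families on a neighbouring cell. Cleavage then frees the intracellular part of the receptor, which enters the nucleus and, with the DNA-binding protein RBPJ, turns on genes of the Hes and Hey families, repressors that hold back neuronal differentiation. Astrocytes carry Notch receptors and depend on RBPJ to keep their identity, while Dll4 is best known as the Notch ligand of endothelial cells, where it restrains vessel sprouting.

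The stretch upstream of the start of transcription was read for the members from RefSeq promoters on GRCm38.p6 (250 bases before the start). Those of Hes5 and Dll4 are shown. Of the 8 members searched, Hes5 alone holds RBPJ motifs, while the other targets, Hes1 and Hey1, could not be searched. Hes5 also has by far the highest level, and a link between motif and level was not tested. Dll4 is a ligand that holds a HES motif. Its contralateral difference between PTE+ and PTE- mice passed only before adjustment (limma unadjusted p = 0.0478, adjusted p = 0.999). The table held 8 of the 10 members, without Hes1 and Hey1. The RBPJ motif GTGGGAA, searched on both strands, was found 2 times upstream of Hes5, at 226 and 83 bases before the start, and not upstream of the other 7. The same motif was in 5.4% of all 32851 promoters of the same length. The HES motif CACNAG, in 36.7% of all promoters, was found 1 time each upstream of Notch1, Notch2 and Dll4 and not upstream of the other 5. The RefSeq start lies inside the annotated gene for Notch1, 12841 bases from its outermost start, and for both starts of Rbpj, 124194 and 124334 bases from it. It also lies inside for 1 of the 2 starts of Dll1 (1049 bases) and for Jag2 (281), Jag1 (124) and Notch2 (11). The windows of Jag2 and Dll1 and 1 of the 2 of Rbpj lie wholly in annotated exons. Both stretches below lie on the plus strand, that of Hes5 at chr4:154960673-154960922 and that of Dll4 at chr2:119325534-119325783, and capitals mark the RBPJ motif in Hes5 and the HES motif in Dll4.
Hes5: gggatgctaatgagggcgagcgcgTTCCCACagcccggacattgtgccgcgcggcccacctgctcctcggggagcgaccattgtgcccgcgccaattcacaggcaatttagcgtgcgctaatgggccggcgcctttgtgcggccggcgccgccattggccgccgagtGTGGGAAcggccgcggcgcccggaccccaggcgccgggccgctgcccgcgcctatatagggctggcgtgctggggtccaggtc
Dll4: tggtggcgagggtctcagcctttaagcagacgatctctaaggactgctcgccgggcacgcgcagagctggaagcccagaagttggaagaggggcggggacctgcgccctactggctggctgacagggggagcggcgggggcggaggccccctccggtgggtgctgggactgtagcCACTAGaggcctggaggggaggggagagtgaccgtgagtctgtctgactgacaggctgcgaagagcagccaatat
Of these bases, 153 in Hes5 and 31 in Dll4 also lie in annotated exons of the opposite-strand genes Gm20421 and Gm14207. A match describes the letters of these windows and was not tested as a binding site.

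The files hold TPM, the share of transcripts that come from a gene, already divided by transcript length and scaled to the same total in every library of both hemispheres, so levels can be compared between genes but the sequencing depth of each library is unknown. The library kit does not mark the strand. Notch1, Dll1, Dll4 and Hes5 share some exonic bases with opposite-strand genes, and Notch2 does with the same-strand gene Gm42820. Reads from the shared bases cannot be told apart. These bases are a part of each member, for example 433 of 1363 exonic bases in Hes5 and 541 of 10782 in Notch2. All 10 astrocyte markers examined, among them Slc1a3 and Aqp4, had group means above 5 TPM in every group, with summed levels of 14210 to 20580 TPM, and Gfap, which rises in reactive astrocytes, was 1.18 (SE 0.29) higher in log2 ipsilaterally after CCI than in sham mice (limma adjusted p = 0.909). Markers of endothelial, mural, oligodendrocyte, microglial and neuronal cells were also present, and none of the 8 marker lists had a gene at 0 in every library of a group. In such bulk libraries, fewer cells of a type and less RNA per cell cannot be told apart. The ipsilateral library of PTE- mouse 9_14 stood apart, with 10727 genes above 0 TPM and a median correlation of 0.739 with its group, against 15599 to 18534 genes and 0.894 to 0.971 in the other 36 libraries. Jag2, Dll1 and Dll4 were listed at 0 in that library, Notch1 stood at 0.43 TPM and Jag1 at 0.02 TPM, while Hes1 and Hes5 had their highest values of all libraries there. The summed mural markers were 5105 TPM in that library, against 796 to 2831 TPM in the other 36. The part of mural RNA in its values of the members was not tested.

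Levels of the members spanned a wide range. Hes5 was by far the highest, with a mean of 748 TPM over the 37 libraries (502 to 1364 TPM), above 99.3% of the genes in the tables. It was followed by the other targets, Hey1 with 85.2 TPM and Hes1 with 55.0 TPM, and by the receptor Notch1 with 21.1 TPM. The ligands, Rbpj and the second receptor were low, at 8.87 TPM for Jag2, 8.33 TPM for Rbpj, 7.83 TPM for Jag1, 5.62 TPM for Notch2, 4.03 TPM for Dll4 and 2.46 TPM for Dll1. Only the ranges of Hes5 and Hey1 did not overlap between neighbours in this order. Hey1 exceeded Hes1 in 36 of 37 libraries, Hes1 exceeded Notch1 in 37 and Notch1 exceeded Jag2 in 36, whereas Jag2 was above Rbpj in 17 and Rbpj above Jag1 in 22, so these 3 did not separate beyond their spread. Jag1 exceeded Notch2 in 29, Notch2 exceeded Dll4 in 28 and Dll4 exceeded Dll1 in 31 of the 37 libraries.

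**Figure D1:**
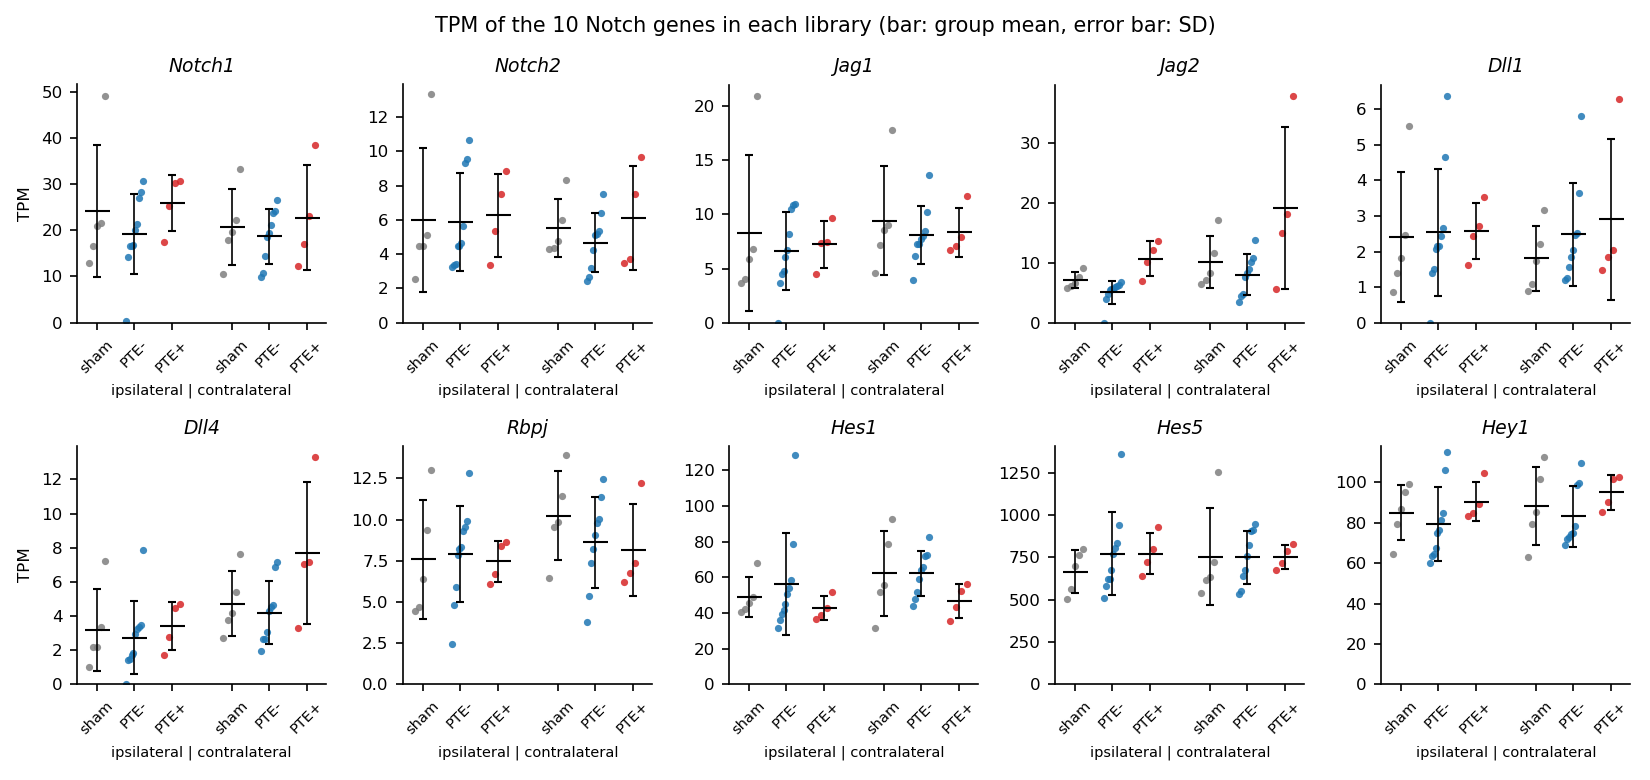
TPM of each of the 10 genes (vertical axis, linear, from 0) in every library, for sham (grey), PTE- (blue) and PTE+ (red) in the ipsilateral and contralateral cortex; points within a group are ordered from low to high, the wide bar is the group mean and the error bar the SD. Jag2 is the gene whose PTE+ and PTE- libraries do not overlap ipsilaterally, 6.89 to 13.6 against 0 to 6.77 TPM.

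Groups were compared on log2(TPM + 1) with limma, using only genes whose mean exceeded 5 TPM in either group. A differentially expressed gene (DEG) had to reach both a limma p below 0.05 before adjustment and a 1.2-fold change. In the ipsilateral cortex 8 members were tested, without Dll1 and Dll4, and 0 were DEGs for CCI against sham, where 1.62% of all genes tested were. For PTE+ against PTE- mice, 1 of the 8 members, Jag2, was a DEG, against 0.573% of all genes. For PTE- against sham there were 0 (1.54% of all genes) and for PTE+ against sham 0 (1.56%). In the contralateral cortex 0 of 9 members tested were DEGs for CCI against sham, where 4.05% of all genes were. For PTE+ against PTE- mice, 3 of 9 were DEGs, Jag2 and Dll4 upward and Hes1 downward, against 2.79% of all genes. The counts were 0 of 8 for PTE- against sham (3.76% of all genes) and 0 of 9 for PTE+ against sham (1.97%). In the comparisons with 0, a limma p below 0.05 before adjustment was likewise reached by 0 members. The comparisons with sham use the same sham libraries, and those with PTE+ mice the same PTE+ libraries, so their values are not independent of one another. After Benjamini-Hochberg adjustment over all genes tested by limma no gene of the tables passed 0.05 in any of these 8 comparisons, and the lowest adjusted p of a member was 0.962. The shares over all genes moved with single libraries. For PTE+ against PTE- the share became 1.89% ipsilaterally without mouse 9_14 and, when each PTE+ mouse was left out in turn, lay between 1.96% (without mouse 9_17) and 4.66% (without mouse 9_18) contralaterally. For ipsilateral PTE+ against sham it became 9.95% without sham mouse 9_11.

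The median log2 fold change of the tested members was 0.16 in ipsilateral and 0.20 in contralateral PTE+ against PTE- mice, beside 0.12 and 0.05 over all genes. Without mouse 9_14 the ipsilateral median was 0.10, beside 0.08 over all genes, and without mouse 8_10 it was 0.29, beside 0.18. Without mouse 9_17 the contralateral median was 0.05, beside -0.01. Because the ipsilateral shift of all genes exceeded 0.1, the fold change of Jag2 there was also taken after centring each library on its median, which gave 0.98 in place of 1.06. For CCI against sham the median of the members was -0.02 ipsilaterally and -0.05 contralaterally, beside -0.01 and -0.07 over all genes.

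**Figure D2:**
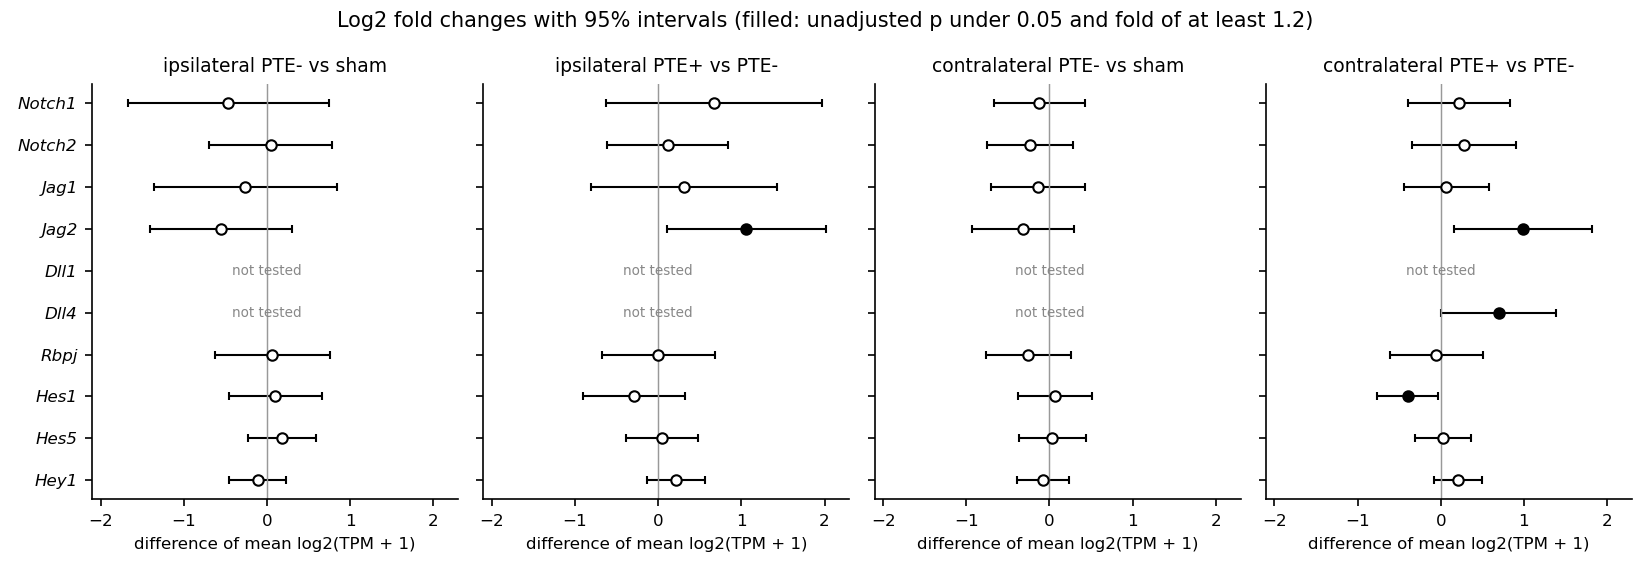
Difference of mean log2(TPM + 1) (horizontal axis) with its 95% interval from limma for each member in 4 comparisons; filled circles are DEGs, and members under the expression filter are marked as not tested. The filled circles are Jag2 in both PTE+ against PTE- comparisons (1.06 and 0.99) and Dll4 (0.70) and Hes1 (-0.40) in the contralateral one.

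Notch1, the more abundant receptor, was a DEG in no comparison. Ipsilaterally it had 24.2 ± 14.4 TPM (SD, n = 5) in sham, 19.2 ± 8.68 (n = 10) in PTE- and 25.9 ± 6.13 (n = 4) in PTE+ mice, and contralaterally 20.7 ± 8.25 (n = 5), 18.7 ± 5.92 (n = 9) and 22.7 ± 11.4 (n = 4). The PTE+ libraries lay at 17.5, 25.2, 30.3 and 30.6 TPM ipsilaterally, within the PTE- range of 0.43 to 30.6. The log2 difference between PTE+ and PTE- was 0.67 (95% interval -0.62 to 1.97) and fell to 0.28 without mouse 9_14 (exact permutation p = 0.355 and 0.245, two-sided). Notch2, the second receptor, was likewise a DEG in none. It had group means of 4.67 to 6.27 TPM, and its log2 differences between PTE+ and PTE- were 0.12 ipsilaterally (-0.61 to 0.84) and 0.28 contralaterally (-0.34 to 0.91). Single libraries moved them to 0.06 (without mouse 9_14) and -0.05 (without mouse 9_17) ipsilaterally and to 0.05 contralaterally without mouse 9_17, and for Notch1 the contralateral difference of 0.22 became -0.07 without mouse 9_17.

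Jag2 (ENSMUSG00000002799, chr12:112907819-112929776 on the minus strand of GRCm38), a ligand of the Jagged family, was higher in PTE+ than in PTE- mice in both hemispheres. Ipsilaterally its level was 6.89, 10.1, 12.1 and 13.6 TPM in the 4 PTE+ libraries, 5.80, 6.19, 6.67, 7.67 and 9.19 TPM in the sham libraries, and 0, 5.63 and 6.77 TPM at the lowest, the median and the highest of the PTE- libraries. Every PTE+ library was above every PTE- library, the lowest of them by a small margin, and 3 of the 4 were above every sham library. The log2 fold change against PTE- was 1.06 (SE 0.45, limma unadjusted p = 0.0326, adjusted p = 0.977, exact permutation p = 0.024). Without mouse 9_14, whose Jag2 was listed at 0, it was 0.79 (limma unadjusted p = 0.000568). In that fit the lowest adjusted p of any gene was 0.983. The exact permutation p without that mouse was 0.0014, the smallest that 4 against 9 libraries allow. Against sham the PTE+ difference was 0.51 (95% interval -0.02 to 1.03, exact permutation p = 0.0556) and the PTE- difference -0.56 (-1.41 to 0.30), the latter -0.28 without mouse 9_14 (exact permutation p = 0.025, limma unadjusted p = 0.106).

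In the contralateral cortex, Jag2 was 5.64, 14.9, 18.2 and 37.8 TPM in the PTE+ libraries, 6.5, 7.05, 8.35, 11.6 and 17.03 TPM in the sham libraries, and 3.41, 8.28 and 13.8 TPM at the lowest, the median and the highest of the PTE- libraries. The groups overlapped, since 3 of the 4 PTE+ libraries exceeded every PTE- library and that of mouse 9_18 lay below the PTE- median. Against sham the difference was 0.67 (95% interval -0.29 to 1.64). The log2 fold change against PTE- was 0.99 (SE 0.39, limma unadjusted p = 0.022, adjusted p = 0.999, exact permutation p = 0.0476). It was 0.59 without mouse 9_17 (unadjusted p = 0.139), 0.93 without mouse 8_17 (p = 0.0553) and 1.44 without mouse 9_18 (p = 0.00112). In the limma fit without mouse 9_18 the lowest adjusted p of any gene was 0.635. Ipsilaterally the call was lost without mouse 8_10 (0.94), 9_17 (0.995) or 9_18 (1.07), and with a pseudocount of 0.1 (1.46). The names of the mice begin with 8 or 9, which the labels do not explain, and within each the difference had the same sign. Ipsilaterally it was 1.02 for names in 8, which rests on 1 PTE+ library, and 1.21 for names in 9, or 0.78 without mouse 9_14. Contralaterally it was 1.12 and 0.88, over 2 PTE+ libraries each. In fits that did not pair the hemispheres of a mouse, the ipsilateral difference exceeded the contralateral one by 0.07 (95% interval -1.21 to 1.35). Without mouse 9_14 the ipsilateral difference was 0.20 below the contralateral one (-0.20).

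Dll4 (ENSMUSG00000027314, chr2:119325784-119335962, plus strand), a Delta-like ligand, was contralaterally a DEG of PTE+ against PTE- mice. In contralateral PTE+ libraries it was 3.30, 7.04, 7.14 and 13.3 TPM, against 2.68, 3.76, 4.15, 5.40 and 7.61 TPM in sham and 1.94, 4.27 and 7.15 TPM at the lowest, the median and the highest of PTE- mice. Only the library of mouse 9_17 lay above every PTE- library, and against sham the difference was 0.54 (95% interval -0.27 to 1.35). The log2 fold change against PTE- was 0.70 (SE 0.32, limma unadjusted p = 0.0478, adjusted p = 0.999, exact permutation p = 0.0657), and 0.42 without mouse 9_17 (unadjusted p = 0.229). The call was kept in 3 of 11 alternatives, which ranged from 0.42 to 0.99. Ipsilaterally Dll4 was under the expression filter in these comparisons, with means of 3.18 TPM in sham, 2.74 TPM in PTE- and 3.42 TPM in PTE+ mice, and PTE+ and PTE- differed by 0.38 in log2, or by 0.19 without mouse 9_14 (exact permutation p = 0.42 and 0.589).

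Both ligands were read beside markers of endothelial cells, in which Dll4 is known to be expressed. Contralaterally the summed level of 10 endothelial markers was 765 to 2474 TPM in PTE+ libraries (median 1588), 520.5 to 1414 TPM in PTE- libraries (median 1035) and 445 to 1875 TPM in sham libraries (median 836). All 9 endothelial markers tested were higher in PTE+ than in PTE- mice, with a median log2 difference of 0.72, and 2 were DEGs, Pecam1 (0.78) and Tek (0.80). Against sham all 9 were higher as well, with a median of 0.49, and 1, Cldn5, was a DEG. The sums overlapped between the groups in both hemispheres, and ipsilaterally they were 349.5 to 1573 TPM in PTE+, 338 to 1114 TPM in PTE- and 412 to 1676 TPM in sham libraries, where all 9 markers tested were again higher in PTE+ than in PTE- mice, with a median difference of 0.22, and 0 were DEGs. Over the 18 contralateral libraries Spearman's rho with the endothelial sum was 0.75 for Jag2 and 0.80 for Dll4, and over the 19 ipsilateral libraries 0.41 and 0.39 (0.43 for both without mouse 9_14). Contralaterally mouse 9_17, the highest in Jag2 and Dll4, also had the highest endothelial sum, and mouse 9_18, the lowest PTE+ mouse in both, the lowest PTE+ sum. Ipsilaterally mouse 9_19 was the lowest PTE+ mouse in Jag2 (6.89 TPM), Dll4 (1.73 TPM) and the sum (349.5 TPM), and mouse 8_10 the highest PTE+ mouse in Jag2 (13.6 TPM) and the sum (1573 TPM). Other libraries did not follow this order. Contralateral sham mouse 8_16 had a sum of 1875 TPM, with Jag2 at 8.35 and Dll4 at 3.76 TPM. Ipsilateral sham mouse 9_10 had the highest sum there, 1676 TPM, with Jag2 at 9.19 and Dll4 at 7.19 TPM. Its Jag2 lay below that of ipsilateral PTE+ mouse 9_17, 12.1 TPM at a sum of 908 TPM. These values describe libraries that share their preparation, and the part of endothelial RNA in the differences of Jag2 and Dll4 was not tested.

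**Figure D3:**
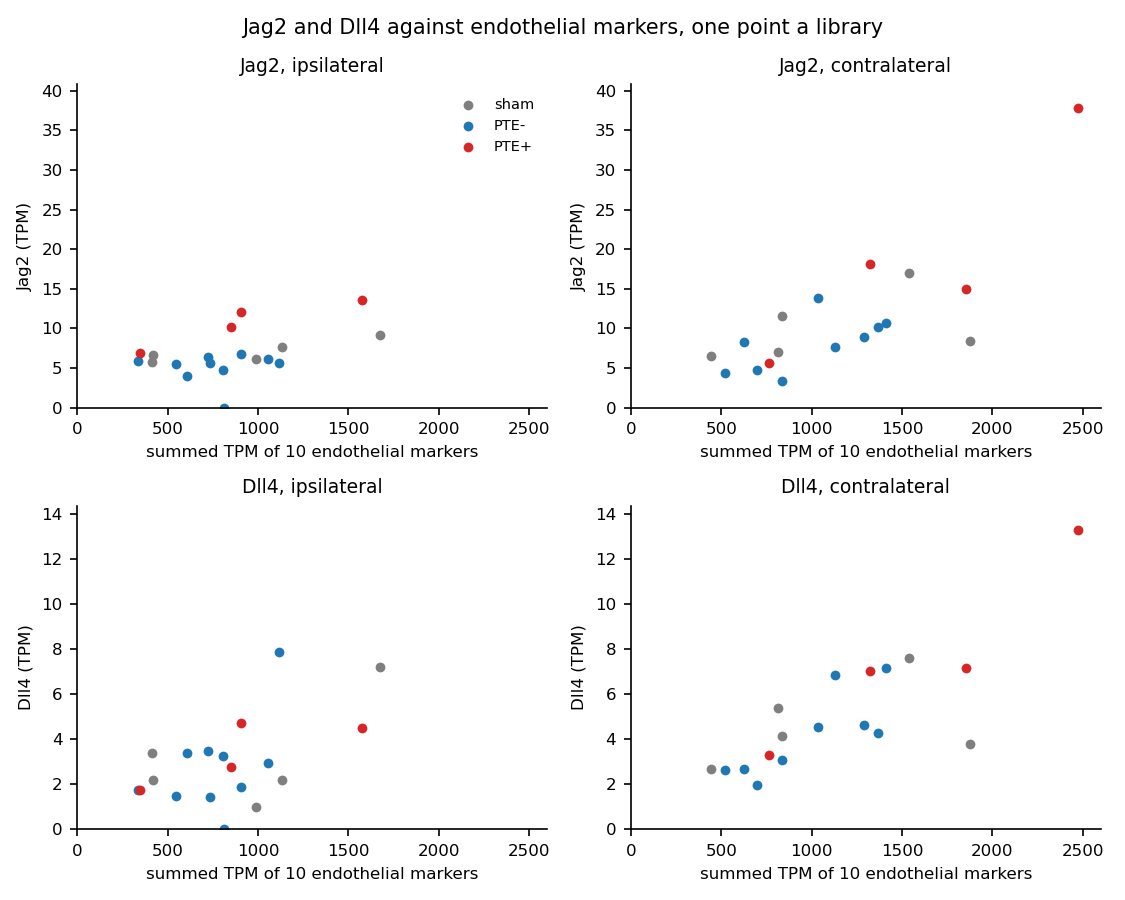
TPM of Jag2 (top) and Dll4 (bottom) against the summed TPM of 10 endothelial markers in the same library, 1 point a library, for sham (grey), PTE- (blue) and PTE+ (red). Contralaterally (right) both genes are highest where the sum is highest, 2474 TPM in PTE+ mouse 9_17. Ipsilaterally (left) every PTE+ library lies above every PTE- library in Jag2. There PTE+ mouse 8_10 has a sum of 1573 TPM, beyond the highest PTE- sum of 1114 TPM.

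The other ligands were DEGs in no comparison. Jag1, the second Jagged ligand, had group means of 6.63 to 9.43 TPM, and PTE+ and PTE- mice differed by 0.31 in log2 ipsilaterally (95% interval -0.80 to 1.43) and by 0.07 contralaterally (-0.44 to 0.58). Both rested on single libraries, since they were 0.02 without mouse 9_14 and -0.09 without mouse 9_17. Dll1, a Delta-like ligand, was under the filter in every comparison, with group means of 1.82 to 2.91 TPM. Its log2 differences between PTE+ and PTE- were 0.15 ipsilaterally and 0.11 contralaterally (exact permutation p = 0.70 and 0.748). Their directions rested on single libraries, with -0.03 without mouse 9_14 and -0.24 without mouse 9_17. Rbpj, the DNA-binding partner of the receptor's intracellular part, had 7.57, 7.91 and 7.46 TPM in ipsilateral sham, PTE- and PTE+ libraries and 10.2, 8.61 and 8.14 TPM in contralateral ones. The log2 difference of PTE+ from PTE- was 0.00 ipsilaterally (-0.68 to 0.68) and -0.05 contralaterally (-0.61 to 0.50), and was -0.14 without mouse 9_14 and -0.25 without mouse 9_17.

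Hes1 (ENSMUSG00000022528, chr16:30064384-30067796, plus strand), a target gene that encodes a transcriptional repressor, was lower in PTE+ than in PTE- mice in the contralateral cortex. Its level was 35.4, 43.2, 52.0 and 56.4 TPM in PTE+ libraries and 44.0, 64.0 and 82.8 TPM at the lowest, the median and the highest of PTE- libraries, against 31.4, 51.9, 55.8, 78.6 and 92.9 TPM in sham libraries. All 4 PTE+ values were below the median of PTE- mice, and 2 of them were below every PTE- value, while the sham libraries reached below and above the values of both. The log2 fold change was -0.40 (SE 0.17, limma unadjusted p = 0.0332, adjusted p = 0.999, exact permutation p = 0.0503). It was kept in 7 of 11 alternatives and lost with array weights (-0.27), with a fit over all 3 groups, and without mouse 9_17 (-0.37) or 9_18 (-0.27). By the number that begins the name, the difference was -0.07 in mice named 8 and -0.71 in mice named 9. Ipsilaterally Hes1 had 42.5 ± 6.66 TPM (SD, n = 4) in PTE+ and 56.4 ± 28.7 TPM (n = 10) in PTE- mice, a difference of -0.29 (95% interval -0.90 to 0.32) that was -0.14 without mouse 9_14, which held 129 TPM. The ipsilateral and the contralateral difference were 0.11 apart (-0.60 to 0.82) in a fit that did not pair the hemispheres of a mouse.

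The other targets were DEGs in no comparison. Hes5, a repressor expressed in neural progenitors and astrocytes, had 667 ± 129 TPM (SD, n = 5) in ipsilateral sham, 773 ± 246 TPM (n = 10) in PTE- and 773 ± 123 TPM (n = 4) in PTE+ libraries, and 753 ± 287, 750.0 ± 157 and 753 ± 69.2 TPM contralaterally. The log2 differences of PTE+ from PTE- were 0.04 (95% interval -0.39 to 0.47) and 0.03 (-0.31 to 0.37), with 0.14 and -0.05 ipsilaterally without mouse 9_14 or 9_17 and -0.02 contralaterally without mouse 8_10. Hey1, of the related Hey family, had group means of 79.4 to 95.02 TPM. Its differences were 0.21 ipsilaterally (-0.14 to 0.56) and 0.20 contralaterally (-0.09 to 0.49), and in both hemispheres all 4 PTE+ libraries were above the median of PTE- mice. In mice named 8 the differences were 0.32 ipsilaterally (1 PTE+ library) and 0.35 contralaterally. In mice named 9 they were 0.11 and 0.09, and the ipsilateral one was 0.01 without mouse 9_14.

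The 2 hemispheres were then compared within each group. In sham mice 0 of 8 members were DEGs (1.19% of all genes), in PTE- mice 0 of 8 (1.99%) and in PTE+ mice 1 of 9 (1.62%), namely Dll4. Dll4 was 1.73, 2.76, 4.47 and 4.71 TPM in the ipsilateral and 3.30, 7.04, 7.14 and 13.3 TPM in the contralateral libraries of PTE+ mice. The log2 difference was -0.91 (SE 0.39, limma unadjusted p = 0.0387, adjusted p = 0.9999). Paired by mouse, with the mouse as a block over the 3 PTE+ mice with both hemispheres, it was -0.70 (unadjusted p = 0.0513) and no longer a DEG. Without the pairing, the call was also lost when mouse 8_10 (-1.02), 8_17 (-0.91), 9_17 (-0.78) or 9_19 (-0.70) was left out and without the expression filter. Dll4 was lower ipsilaterally in 5 of 5 sham, 7 of 9 PTE- and 3 of 3 PTE+ mice, with paired exact permutation p = 0.0625, 0.191 and 0.25, of which the first and the last are the smallest their numbers of mice allow. In PTE+ mice all 9 endothelial markers tested were lower ipsilaterally as well, with a median of -0.73, in sham mice all 9 (-0.29) and in PTE- mice 8 of 9 (-0.33), and their part in the Dll4 difference was not tested.

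Hes1 in PTE- mice differed by -0.23 (95% interval -0.67 to 0.20) without pairing. With the mouse as a block the paired difference was -0.38 (limma unadjusted p = 0.0156, adjusted p = 0.422) and Hes1 became a DEG, as it did when mouse 9_14 was left out (-0.38, p = 0.0238). In these fits 5.95% and 3.48% of all genes were DEGs, in place of 1.99%, and in sham mice the block raised the share from 1.19% to 6.91%, with 0 members among them. It was lower ipsilaterally in 7 of 9 PTE- mice (paired exact permutation p = 0.0508), in 4 of 5 sham mice (-0.27) and in 1 of 3 PTE+ mice. Jag2 was lower ipsilaterally in 4 of 5 sham, 6 of 9 PTE- and 2 of 3 PTE+ mice, with paired log2 differences of -0.39, -0.36 and -0.32 (exact permutation p = 0.125, 0.121 and 0.75). The smallest p that 5 and 3 mice allow is 0.0625 and 0.25. Without pairing they were -0.39, -0.63 and -0.56, of which that in PTE- mice includes mouse 9_14, and Jag2 was a DEG in none of the 3. The group effects were also compared between hemispheres, in fits that did not pair the libraries of a mouse. There 0 of 9 members tested were DEGs for CCI against sham (1.37% of all genes) and 0 of 9 for PTE+ against PTE- (0.0843%). In both, 0 members had a limma p below 0.05 before adjustment. With the mouse as a block, 6.5% and 3.09% of all genes were DEGs.

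**Figure D4:**
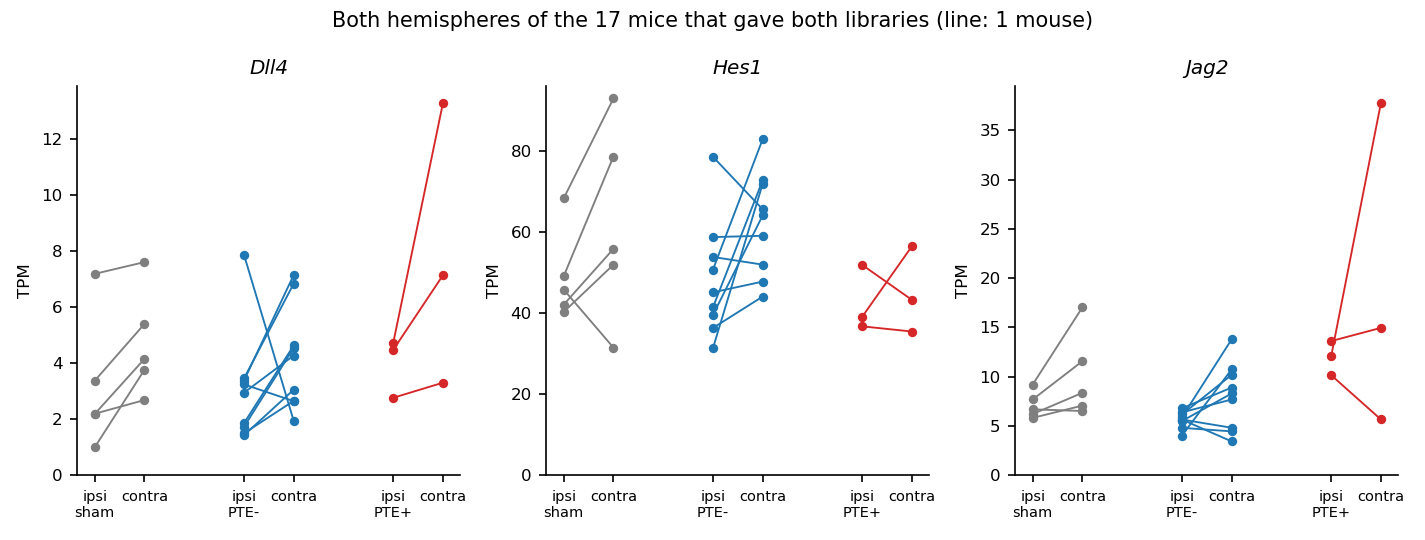
TPM (vertical axis, linear, from 0) of Dll4, Hes1 and Jag2 in the ipsilateral and contralateral library of the 17 mice that gave both, 1 line a mouse, for sham (grey), PTE- (blue) and PTE+ (red). The Dll4 line rises towards the contralateral side in 15 of 17 mice.

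The members fell into several patterns over the libraries. Notch1 and Notch2 varied together, with Spearman's rho of 0.90 over the 19 ipsilateral and 0.81 over the 18 contralateral libraries, and Notch1 and Jag1 with 0.82 and 0.86. With the summed astrocyte markers, Notch1, Notch2 and Jag1 had rho of 0.81, 0.78 and 0.77 ipsilaterally and 0.17, 0.33 and -0.03 contralaterally. Jag2 had rho of 0.11 and 0.27 with Notch1 and of -0.12 and 0.08 with Jag1, whereas Jag2 and Dll4 had 0.33 and 0.80. Among the targets, Hes1 and Hes5 had 0.62 and 0.70, while Hes1 and Notch1 had 0.26 and 0.24. Without mouse 9_14 the ipsilateral rho was 0.48 for Hes1 and Notch1, 0.22 for Jag2 and Dll4, -0.04 for Jag2 and Notch1 and -0.32 for Jag2 and Jag1. These are descriptions over libraries of all groups, which share group and preparation. The sham mouse 9_11 had the highest Notch1 (49.1 and 33.2 TPM), Notch2 (13.3 and 8.32 TPM) and Jag1 (20.9 and 17.8 TPM) of the sham libraries in both hemispheres, while its Jag2 (5.80 and 7.05 TPM) was among the lowest. Over genes with a mean above 5 TPM, its libraries also had the highest median log2(TPM + 1) of each hemisphere (5.04 and 5.06). Contralateral PTE+ mouse 9_17, the highest in Jag2 and Dll4, came close with 5.05, against 4.69 to 4.77 in the other contralateral PTE+ libraries. The part of such library-wide levels in these patterns was not tested.

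**Figure D5:**
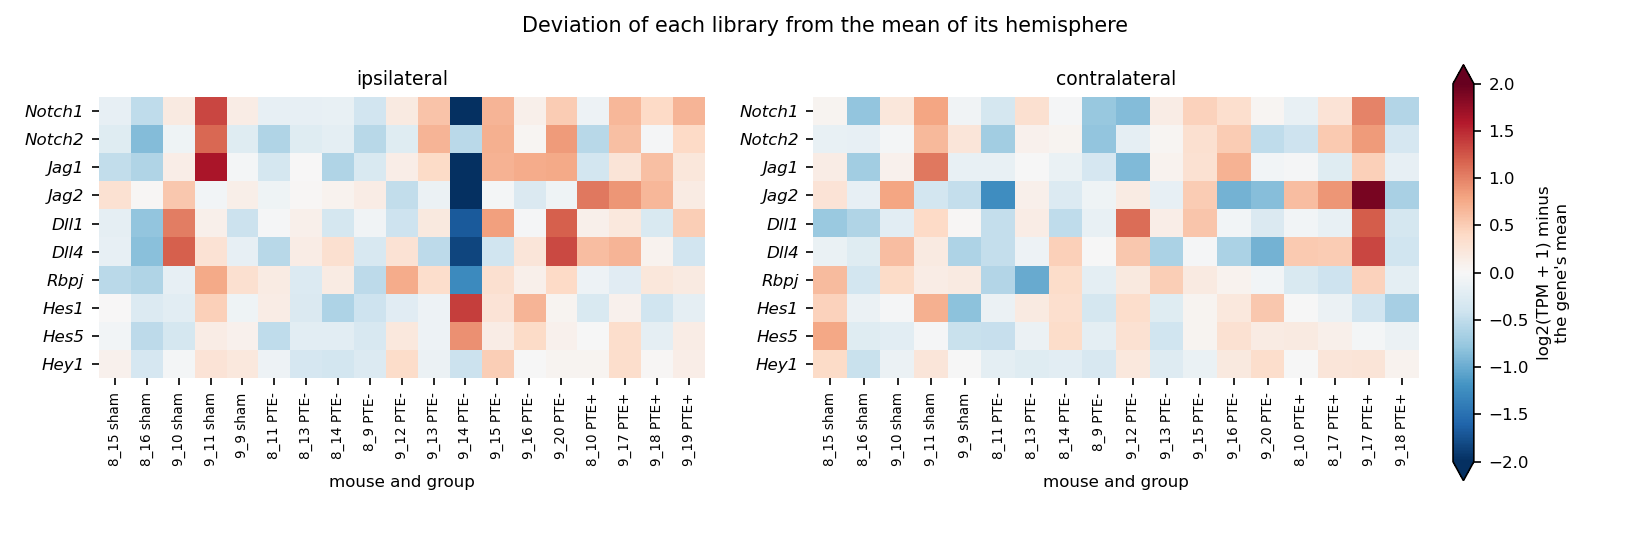
Log2(TPM + 1) of each member in each library minus the gene's mean over the libraries of that hemisphere, from -2 (blue) to 2 (red), with libraries ordered by group; values beyond the ends take the end colour. Notch1, Notch2 and Jag1 share their high values in sham mouse 9_11, and Jag2 and Dll4 theirs in contralateral PTE+ mouse 9_17. The ipsilateral library of PTE- mouse 9_14 is low in Notch1 and the ligands and high in Hes1 and Hes5, while its Notch2 lies within the range of the other libraries.

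For each member the genes with the most similar pattern were taken as those with the highest Spearman's rho in the hemisphere where it was lower, among 10411 or 10412 genes over the 19 ipsilateral and 18 contralateral libraries. For Jag2 they were Eps8l2 (0.86 and 0.89), Tmem88 (0.65 and 0.69) and Hspa12b (0.62 and 0.84). For Dll4 they were Slc26a10 (0.77 and 0.85), Hyal2 (0.73 and 0.77) and Far2 (0.71 and 0.75), and without mouse 9_14 the first was Flt1 (0.77 and 0.92), a receptor for vascular endothelial growth factors and one of the endothelial markers. For Notch1 they were Abr, Phlpp1 and Clcn7 (lower rho of 0.88 each), for Notch2 Skiv2l, Adgrg1 and Bicd2, for Jag1 Esyt2, Impad1 and Pdpr, and for Dll1 Map2k5, Itfg2 and Actn4. For Rbpj they were Tet3, Smpd4 and Sesn2, for Hes1 Gin1, Ostm1 and Akap7, for Hes5 Slc9a3r1 (0.90 and 0.86), Paqr7 and Tmem115, and for Hey1 Scara3 and B3galt4. Leaving out mouse 9_14 kept 16 of the 30 genes chosen in this way.

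Beyond the members, 46 further genes of the pathway were examined, of which 38 or 39 passed the expression filter in each comparison. For PTE+ against PTE- mice 0 were DEGs in either hemisphere, with medians of 0.12 ipsilaterally and 0.08 contralaterally beside 0.12 and 0.05 over all genes, and for CCI against sham 0 in either hemisphere. In the contralateral cortex of PTE- mice 2 of 38 fell against sham, where 3.76% of all genes were DEGs. These were Numb, an inhibitor of the receptor (-0.40, 20.2 ± 4.30 against 27.0 ± 6.04 TPM, limma adjusted p = 0.962), and Spen, a corepressor bound by RBPJ (-0.51, 6.58 ± 2.28 against 9.75 ± 3.31 TPM, limma adjusted p = 0.962). Contralaterally 1 of 38, the further target Hey2, fell in PTE+ mice against sham (-0.56, 8.11 ± 0.894 against 12.7 ± 3.35 TPM, limma adjusted p = 0.9997). Of 39 genes 1, Mib2, a ubiquitin ligase of the ligands, was higher ipsilaterally than contralaterally in PTE- mice (0.32, 59.1 ± 11.6 against 47.2 ± 9.58 TPM, limma adjusted p = 0.971). The shares over all genes were 1.97% and 1.99% in these comparisons, so that the pathway counts lay near the background.

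The levels of the machinery around the receptor are given for genes above 20 TPM in a group. Among the genes that cut the receptor, group means were 220 to 251 TPM for Psenen, 54.6 to 60.6 TPM for Aph1a, 51.7 to 56.3 TPM for Ncstn and 22.8 to 30.2 TPM for Psen2, all subunits of gamma-secretase, and 17.5 to 21.5 TPM for the protease Adam10. Among the genes that glycosylate the receptor, Lfng had 127 to 192 TPM, Rfng 70.3 to 79.6 TPM and Poglut1 29.1 to 36.2 TPM. Lfng was 0.64 higher in log2 in contralateral PTE+ than PTE- mice (limma unadjusted p = 0.0529, adjusted p = 0.999), 192 ± 63.9 against 127 ± 48.0 TPM, and was no DEG. Of the ubiquitin ligases of the ligands, Mib2 had group means of 47.2 to 61.8 TPM and Neurl1a of 26.1 to 56.0 TPM. Neurl1a had a difference of 1.30 there (unadjusted p = 0.0718), with 15.4 to 109 TPM in PTE+ and 3.94 to 76.9 TPM in PTE- libraries, which overlap. Dner, a Delta-like membrane protein, had 78.6 to 108 TPM, and of the genes that act on receptor turnover Dtx3 had 113 to 127 TPM, Dtx1 83.5 to 107 TPM, Numb 20.2 to 27.0 TPM and Itch 13.8 to 20.6 TPM. Of the nuclear cofactors Snw1 had 59.5 to 69.2 TPM and Kdm5a 43.5 to 71.8 TPM, and of the further targets Nrarp had 178 to 209 TPM, Hes6 77.7 to 84.4 TPM and Heyl 27.4 to 33.6 TPM. Apart from the 4 genes named as DEGs, none of these passed both thresholds in any comparison of 2 groups or hemispheres.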

How the data were processed

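The authors sequenced SMART-Seq v4 libraries of ACSA-2 selected astrocytes, trimmed reads with Trim Galore (0.6.4) and quantified them on mm10 with RSEM (1.2.28) and Bowtie2 (2.4.1). They deposited TPM per Ensembl gene, 1 table per hemisphere, and tested raw counts with DESeq2 (1.36.0), which were not used here. The annotation release is not given in the sources used here. All 37 library columns were read, and 0 were left out. The study itself had dropped 1 PTE+ animal because its correlation was low and 1 PTE- animal that lacked sequencing data. The PTE+ libraries read here are thus those that remained after that choice. The ipsilateral library of PTE- mouse 9_14, with a median correlation of 0.739 with its group, was not dropped. Symbols and positions came from GENCODE on GRCm38.

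TPM keep no depth, so counting error is unknown and log2(TPM + 1) was compared with limma (3.58.1, R 4.3.3) with a variance trend, over genes with a mean above 5 TPM in a group compared. DEGs reached both a p below 0.05 before adjustment and a 1.2-fold change, which are the thresholds of the study. Adjusted p-values are Benjamini-Hochberg over all genes tested. Because of the pseudocount of 1, fold changes of low genes come out too small. For single members, exact permutation tests (two-sided) reassigned libraries, or mice where paired. Within a hemisphere each library is a separate mouse. Fits were tested on simulated data. Alternatives were a pseudocount of 0.1, no filter, quantile normalization, median centring, array weights, a fit of 3 groups, a covariate for the first digit of mouse names, the mouse as a block and leaving out each sham mouse, each PTE+ mouse and PTE- mouse 9_14.

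The members, the pathway and marker lists and the alternatives were chosen with earlier results of these data known, and leaving out mouse 9_14 from the rho values and name-prefix differences, and single mice from the medians and unfiltered members, was added after the values were seen. All members are named, pathway genes where they are DEGs or exceed a mean of 20 TPM in a group, and the 3 most similar genes of each member. Some genes that this rule names are not reported here. The exceptions are the cell type markers Gfap, Slc1a3, Aqp4, Pecam1, Tek, Cldn5 and Flt1, named after their values were seen. The labels carry mouse names, so the hemispheres of 1 mouse are paired. This was checked over 10235 genes, where deviations from the group mean correlated within a mouse with a median r of 0.412 (range 0.042 to 0.686, and 16 of the 17 mice exceeded 0.1). Between hemispheres of unlike mice the median was -0.106 (98 pairs). Other steps ran in Python (3.11.15), with scipy (1.17.1), pandas (2.3.3) and numpy (2.4.6), and plots in matplotlib (3.10.9).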

Additional observations from a re-analysis of the deposited data

Results flagged for a closer look

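Of the 60 groups of member values, 9 held a library far from the others by Dixon's criterion, which chance alone meets in about 1 group in 20. In the ipsilateral sham group mouse 9_11 was far above the others in Notch1 (49.1 against 12.9 to 21.5 TPM), Notch2 (13.3 against 2.53 to 5.12 TPM) and Jag1 (20.9 against 3.66 to 6.77 TPM). Ipsilateral PTE- mouse 9_14 was listed at 0 TPM in Jag2 (others 4.01 to 6.77 TPM) and was highest in Hes1 (129 against 31.3 to 78.5 TPM) and Hes5 (1364 against 509 to 944 TPM). Dll4 was 7.88 TPM in ipsilateral PTE- mouse 9_20 (others 0 to 3.45 TPM). Dll1 was 6.29 TPM in contralateral PTE+ mouse 9_17 (others 1.47 to 2.04 TPM). Hes5 was 1253 TPM in contralateral sham mouse 8_15 (others 538 to 725 TPM). What sets these libraries apart was not tested.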

How the results depend on the processing

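Of the recomputed fold changes of members that were DEGs in at least 1 fit, 170 stayed on their side of the thresholds, 16 came to pass, 24 no longer passed and 0 turned direction. With 4 PTE+ libraries a side, calls moved with single mice. Leaving out each sham or PTE+ mouse, or PTE- mouse 9_14, ipsilateral PTE+ against PTE- mice gave 0 to 1 DEGs among the members, ipsilateral PTE+ against sham 0 to 1, contralateral PTE+ against PTE- 0 to 2, contralateral PTE+ against sham 0 to 2, and ipsilateral against contralateral 0 to 1 in sham, 1 in PTE- (Hes1, without mouse 9_14) and 0 to 2 in PTE+ mice. With a pseudocount of 0.1 the ipsilateral PTE+ against PTE- count was 0, and without the filter that between hemispheres in PTE+ mice was 0. Array weights gave 1 for PTE+ against sham ipsilaterally (Jag2) and contralaterally (Rbpj), 1 between hemispheres in PTE- (Hes1), 2 in PTE+ mice (Notch1 and Dll4) and 1 for the difference between hemispheres of CCI against sham (Rbpj). The prefix of the mouse name as covariate gave 1 for ipsilateral PTE+ against sham (Jag2). With the replicate block of paired hemispheres the count was 1 in PTE- and 0 in PTE+ mice, and the block changed no other count by over 1.5 times. While 27 counts moved, the other 146 stayed within 1.5 times of those reported. The cause of these changes was not tested.

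The number of libraries limits these comparisons, and TPM give no depth. Paired tests of 3 PTE+ mice cannot go below an exact p of 0.25, those of 5 sham mice below 0.0625.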
